A study of Mus musculus with 113 samples.

Results

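The 7 genes Hmgcs1, Idi1, Fdps, Fdft1, Sqle, Lss and Cyp51 were followed through every RNA-seq library of the series. They were taken by symbol, 7 of 24006 genes in the files, and all 7 passed the filter on low values in every fit. All of them encode enzymes of cholesterol synthesis, and none takes up cholesterol, so genes of uptake are given from a list of their own.

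The study asked which nuclear receptors act between the activation of the mouse embryonic genome and the first lineage choice, with NR5A2 at its centre. Smart-seq2, which reads whole transcripts from a few cells, gave 92 RNA libraries of mouse embryos at the 2-cell (2C), 4-cell (4C) and 8-cell (8C) stage. The labels give all embryos as wild type, from superovulated females, which were 5 to 6 weeks old by the study's methods. In 32 libraries, 5 to 10 embryos were pooled after injection of siRNA, with 2 libraries in each group.

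The siRNA groups fell into 4 experiments with negative control (NC) groups of their own. The siRNA amounts given here are those of the labels, and the study's methods give others. In the 4KD experiment, embryos received 5 μM siRNA to each of Nr5a2, Rarg, Nr1h3 and Nr2c2, or 20 μM control siRNA, and were collected at 4C and 8C. In the 3KD experiment, 3 of the 4 receptors were targeted at 5 μM each, in 4 combinations, against 15 μM control siRNA at 8C. In the single KD experiment, each receptor was targeted alone at 5 μM, against 5 μM control siRNA at 8C. A further pair of groups received 20 μM Nr5a2 siRNA or control siRNA and was collected at 2C. The other 60 libraries were single embryos at 2C or 8C, injected at 100 ng/μl with base editor mRNA (BE, a cytosine editor, 8 embryos per stage), with a guide RNA to Nr5a2 (sgRNA, 8 per stage), or with both (BE + sgRNA, 14 per stage). siRNA lowers a receptor without removing it, and the share of edited Nr5a2 copies in each embryo was not analysed here.

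Cholesterol is built from acetyl-CoA. HMGCS1 acts on the way to mevalonate, IDI1 and FDPS turn the resulting isoprenoids into farnesyl diphosphate, FDFT1 joins farnesyl units to squalene and thereby commits them to sterols, SQLE and LSS close squalene into lanosterol, and CYP51 removes a methyl group from lanosterol on the way to cholesterol. Transcription of these genes is known to rise when, at low membrane sterol, INSIG no longer holds back the escort SCAP, which then takes SREBP2 to be cleaved so that it enters the nucleus. Of the targeted receptors, NR5A2 is known in the liver for genes of bile acid synthesis and NR1H3 (LXR alpha) as a sterol sensor that acts on cholesterol efflux, while the early embryo also carries RNA left over from the oocyte.

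Levels are given as FPKM, sequenced fragments scaled to transcript length and to the mapped fragments of the library, as the authors deposited them. Differences are on the log2(FPKM + 1) scale, which understates changes of low genes, and come from limma, fitted over all genes of an experiment whose mean reached 1 FPKM in some group. A gene was called at an adjusted p under 0.05 (Benjamini-Hochberg over all genes tested). With 2 libraries in a group, these tests lean on the spread shared across genes. The labels do not state that libraries of a group came from separate collections, so p-values measure the spread between these libraries, and fewer cells in a library and less RNA per cell cannot be told apart.

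A library held 5472 to 11921 genes at or over 1 FPKM, and its values added up to 83392 to 556462. Both lowest values belong to 8C BE + sgRNA replicate 8, an embryo of the edited group. The next lowest sum at 8C was 207918, in 8C sgRNA replicate 7. The deposited FPKM hold no read counts, so the depth in reads is unknown. A relative depth, estimated from ratios of low values between libraries, ran from 0.368 to 1.522. It was 0.368 to 0.756 (4C) and 0.403 to 0.619 (8C) in the 4KD experiment and 0.942 to 1.323 in 3KD. In the single KD experiment it was 0.631 to 1.174, with 0.942 and 0.67 in Nr5a2 knockdown replicates 1 and 2. No libraries of the same group were duplicates of each other. Genes of cumulus cells, which surround the oocyte, were near 0 at 4C and 8C (10 genes, summed FPKM at most 3.28), while at 2C their sum reached 47.4 in 1 NC pool and 122 in 1 BE embryo. Of the single embryos, 3 (2C sgRNA replicate 8, 8C BE + sgRNA replicates 13 and 14) carry column names of the 4-cell stage and were kept in the groups of their labels. In the first of them 5 oocyte genes summed to 34.8 FPKM, against 228 to 2789 FPKM in the other 2C sgRNA embryos, and 7620 genes reached 1 FPKM, against 9372 or more. In the other two that sum was 131 and 266 FPKM, against 30.0 to 142 FPKM in the rest of their group. Without these 3 embryos, 0 of the 7 genes were called in either base editing comparison and in their difference, as with them, and 4 in place of 3 between the stages.

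Fdft1 was the highest of the 7 enzymes in 86 of 92 libraries, with a median of 79.7 FPKM. Sqle followed with a median of 25.4 FPKM and was highest in 4 libraries. Fdps had a median of 17.3 FPKM and was highest in the remaining 2. Hmgcs1 at 11.1, Lss at 11.04 and Idi1 at 8.32 FPKM lay close together. Cyp51 was lowest, with a median of 3.24 FPKM, and held the last place in 69 libraries. Idi1 was listed at 0 in 2 single embryos and Cyp51 in 1. The ranges over libraries overlapped for every pair of neighbours in this order, from 11.6 to 231 FPKM for Fdft1 down to 0 to 13.6 FPKM for Cyp51.

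In the annotation of mm9, the build of the files (GENCODE M1), Fdft1 lies on chromosome 14 from 63763990 to 63796630 on the minus strand and Fdps on chromosome 3 from 88897514 to 88905881 on the minus strand. Lss lies on chromosome 10 from 75994333 to 76019883 on the plus strand, Sqle on chromosome 15 from 59146632 to 59162747 on the plus strand and Idi1 on chromosome 13 from 8884852 to 8891641 on the plus strand. Cyp51 lies on chromosome 5 from 4081145 to 4104746 on the minus strand. All 6 are protein-coding genes, and Hmgcs1 was not matched in that annotation.

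The promoter windows of RefSeq (table of build GRCm38.p6, 250 bases before to 50 after the start) held 4 of the 7 genes, Hmgcs1, Idi1, Lss and Cyp51, and not Sqle, Fdps or Fdft1. The 250 bases before the start are shown for Lss, whose libraries with Nr5a2 siRNA lay below the others in 2 experiments, and for Hmgcs1, the first enzyme of the 7, for which that was so in none. Capitals mark matches on either strand to TCACNCCA (a form of the sterol element bound by SREBP), CCAAT (bound by NF-Y) and GGGCGG (bound by Sp1), read 5′ to 3′ on the strand of the gene. In mm9 the Lss stretch is chr10:75994100-75994349 on the plus strand, the last bases of which lie in the annotated gene, whereas the Hmgcs1 window, on chromosome 13, had no exact match in mm9.
Lss: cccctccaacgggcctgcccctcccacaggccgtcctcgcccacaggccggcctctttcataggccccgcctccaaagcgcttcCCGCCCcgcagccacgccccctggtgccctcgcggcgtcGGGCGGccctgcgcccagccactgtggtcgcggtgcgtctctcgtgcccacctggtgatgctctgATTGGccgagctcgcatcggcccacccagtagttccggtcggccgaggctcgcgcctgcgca
Hmgcs1: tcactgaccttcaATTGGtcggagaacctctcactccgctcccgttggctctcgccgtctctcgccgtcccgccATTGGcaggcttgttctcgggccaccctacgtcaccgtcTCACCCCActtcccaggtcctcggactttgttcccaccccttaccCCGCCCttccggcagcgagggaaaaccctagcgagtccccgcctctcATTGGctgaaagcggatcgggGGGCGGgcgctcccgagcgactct

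Within its 300 bases Lss held 1 CCAAT, 2 GGGCGG and no TCACNCCA, and Hmgcs1 held 4 CCAAT, 3 GGGCGG and 1 TCACNCCA. Idi1 held 2 CCAAT and 1 GGGCGG, and Cyp51 held 1 of each of these. Of all 32851 promoter windows of this length, 37.4 percent held CCAAT, 35.7 percent GGGCGG and 4.36 percent TCACNCCA. CAAGGNCA, the form bound by NR5A2, was in 6.71 percent and the DR4 element bound by LXR (AGGTCA repeated after 4 bases) in 0.0152 percent of all windows, and neither was in these 4. A match describes the letters of the window, not a bound site.

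With knockdown of Nr5a2 alone at 8C, Fdft1, the gene of squalene synthase, fell, by a call that did not hold under every setting. Fdps and Lss lay below NC in both knockdown libraries without passing the test, and Hmgcs1, Idi1, Sqle and Cyp51 overlapped between the groups. Of the 7 genes 1 was called, against 2.75 percent of the 10163 genes tested. At an unadjusted p under 0.05 it was 3 of 7 against 18.1 percent, and both knockdown libraries lay below both NC libraries for 3 of 7 against 33.1 percent. Nr5a2 itself stood at 9.65 and 12.8 FPKM in the knockdown and at 50.2 and 48.8 FPKM in NC, a log2 fold change of -2.06 (adjusted p = 0.0115, limma).

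Fdft1 stood at 136 and 165 FPKM in the NC libraries. In the Nr5a2 knockdown it stood at 67.1 and 21.6 FPKM. The knockdown libraries lay below both NC libraries, and replicate 2 lay lower than replicate 1. The log2 fold change was -1.94 (SE 0.46, 95% interval -2.95 to -0.93, limma adjusted p = 0.0483). The median of all genes was -0.22 in this comparison, and with median-ratio scaling, which brings it to 0.01, Fdft1 differed by -1.65 (adjusted p = 0.0312). The call was lost with no filter on low values (adjusted p = 0.13), without a trend in the prior variance (0.0652) and with only the groups compared (0.0823). Without knockdown replicate 2 the log2 fold change was -1.15 and without replicate 1 of the NC group -2.08, without replicate 2 of that group -1.81, and the call was lost in all 3 cases.

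Fdps, the gene of farnesyl diphosphate synthase, stood at 31.3 and 33.8 FPKM in NC and at 6.93 and 15.2 FPKM in the Nr5a2 knockdown. Both knockdown libraries were lower, at a log2 fold change of -1.56 (SE 0.49, limma p = 0.00861, adjusted p = 0.125). Lss, the gene of lanosterol synthase, stood at 15.7 and 15.0 FPKM in NC and at 8.05 and 2.15 FPKM in the knockdown. Again both knockdown libraries were lower and replicate 2 was the lowest, at -1.62 (SE 0.50, limma p = 0.00766, adjusted p = 0.118). Without knockdown replicate 1 the value of Lss was -2.38 and it was called, and without replicate 2 it was -0.86 (adjusted p = 0.308).

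The other 4 enzymes did not follow. Hmgcs1 stood at 7.31 and 12.5 FPKM in NC against 17.7 and 9.14 FPKM in the Nr5a2 knockdown. Sqle stood at 23.9 and 20.5 FPKM against 42.5 and 11.9 FPKM, so that the knockdown libraries lay on both sides of NC. Idi1 and Cyp51 differed by -0.40 and -0.23. The 95% intervals of these 4 differences ran from -1.32 to 1.41 on the log2 scale, so differences of up to that size lay within the error.

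The other single knockdowns share the NC libraries with the Nr5a2 knockdown. In them Fdft1 stood at 139 and 180.1 FPKM (Rarg), 153 and 153 FPKM (Nr1h3) and 152 and 116 FPKM (Nr2c2), around the NC values. How far each siRNA lowered its own receptor in these groups is not reported here and was not compared with the Nr5a2 knockdown. Against the mean of these 3 groups, Fdft1 differed in the Nr5a2 knockdown by -1.92 (SE 0.38, limma adjusted p = 0.017), 1 of 7 genes called against 3.95 percent of all genes. At an unadjusted p under 0.05 it was 3 of 7 against 19.5 percent, and below all 6 other libraries lay 2 of 7 (Fdft1 and Lss) against 13.6 percent. The call was lost without Nr5a2 knockdown replicate 2, where the value was -1.13, and without any 1 of the 6 libraries of the other knockdowns. Lss stood at 12.05 and 22.3 FPKM (Rarg), 18.4 and 20.0 FPKM (Nr1h3) and 12.4 and 10.3 FPKM (Nr2c2), above both Nr5a2 knockdown libraries, with a difference of -1.61 (SE 0.41, adjusted p = 0.0527). It was -2.37 without knockdown replicate 1 (called) and -0.85 without replicate 2 (adjusted p = 0.227).

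Fdps did not set the Nr5a2 knockdown apart. It stood at 6.37 and 16.0 FPKM in the Rarg knockdown, as low as in the Nr5a2 knockdown, with a log2 fold change of -1.58 against NC (SE 0.49, limma p = 0.00813, adjusted p = 1). In the Nr1h3 knockdown it stood at 35.0 and 29.3 FPKM and in the Nr2c2 knockdown at 18.5 and 30.5 FPKM. By limma 0 of the 7 genes were called in the Rarg, Nr1h3 or Nr2c2 knockdown, where 1 (0.00984 percent), 1 (0.00984 percent) and 8 (0.0787 percent) of all genes were. At an unadjusted p under 0.05 the count was 1 (Fdps), 0 and 0, against 3.76, 2.92 and 4.19 percent. In the Nr2c2 knockdown all 7 genes lay below NC, as did 71.8 percent of all genes tested. With median-ratio scaling it was 6 of 7.

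**Figure D1:**
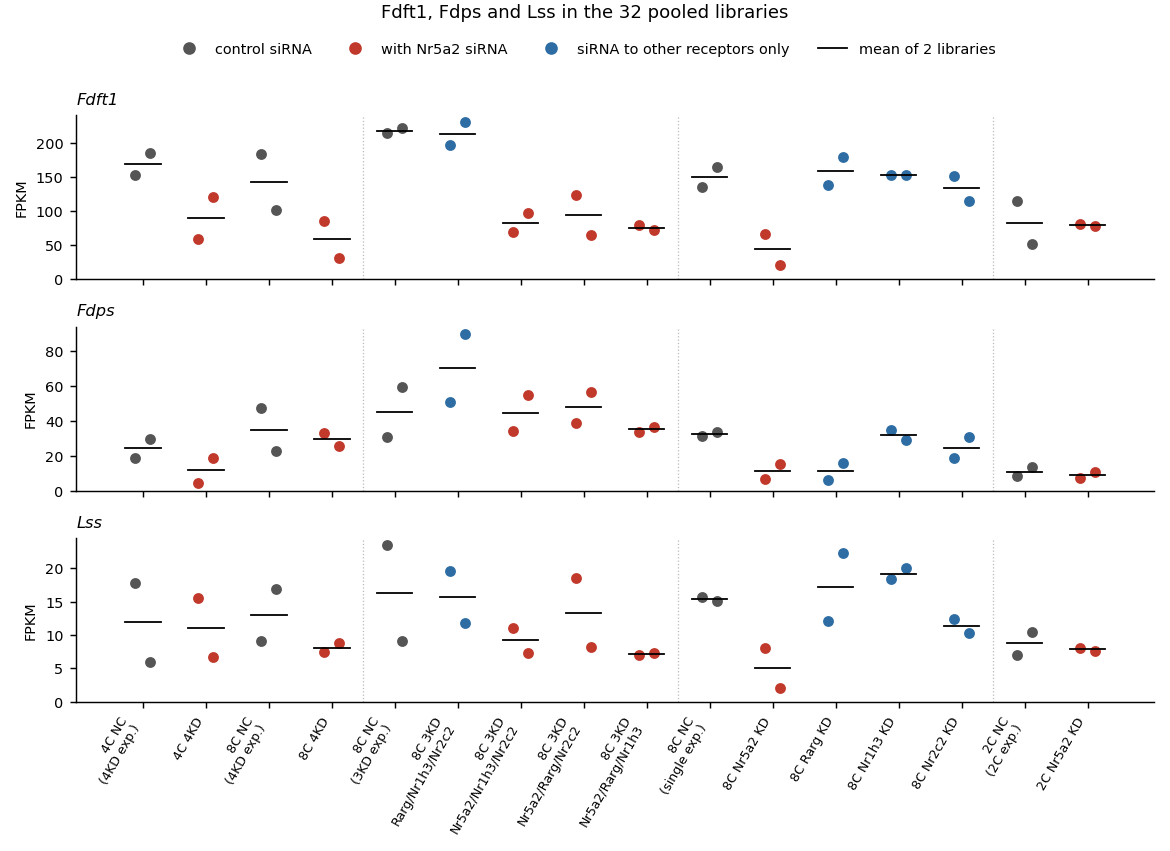
FPKM (linear axis from 0) of Fdft1, Fdps and Lss in each of the 32 pooled libraries, 2 points per group with a line at their mean, in columns by siRNA group. Fdft1 lies at 21.6 to 123 FPKM in the 10 libraries with Nr5a2 siRNA at 8C and at 101 to 231 FPKM in the 14 without it, whereas Fdps is low in both the Nr5a2 and the Rarg knockdown.

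The 3KD experiment asked what happens when 1 of the 4 siRNAs is left out. Fdft1 lay around the NC level where the Nr5a2 siRNA was the one left out and lay lower in the 3 combinations that held it. It stood at 215 and 222 FPKM in NC and at 198 and 231 FPKM with Rarg, Nr1h3 and Nr2c2 siRNA. With Nr5a2, Nr1h3 and Nr2c2 siRNA it stood at 69.0 and 97.6 FPKM, with Nr5a2, Rarg and Nr2c2 siRNA at 123 and 65.2 FPKM, and with Nr5a2, Rarg and Nr1h3 siRNA at 80.2 and 72.0 FPKM. All 6 libraries with Nr5a2 siRNA lay below all 4 without it, which held for 1 of the 7 genes and 2.99 percent of all genes.

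Against the shared NC group the log2 fold changes of Fdft1 in the 3 combinations with Nr5a2 siRNA were -1.40 (limma p = 0.00621, adjusted p = 0.42), -1.27 (p = 0.0107, adjusted p = 0.53) and -1.51 (p = 0.00388, adjusted p = 0.32), each with an SE of 0.42. In each of them limma called 0 of the 7 genes, with 0.0565, 0.00941 and 0 percent of all genes, and at an unadjusted p under 0.05 it was 1 of 7 (Fdft1) in each, against 6.25, 6.95 and 7.37 percent. Without Nr5a2 siRNA the log2 fold change was -0.03 (95% interval -0.95 to 0.88), with 0 of 7 and 0 percent called, and 0 of 7 against 2.36 percent at an unadjusted p under 0.05. The direct comparison, Rarg, Nr1h3 and Nr2c2 siRNA against the mean of the other 3 combinations, gave 1.36 (SE 0.34, p = 0.002, adjusted p = 0.134), and 0 of 7 genes were called against 0.282 percent of all genes, with 1 at an unadjusted p under 0.05 (Fdft1) against 10.1 percent. Libraries of the 3KD experiment with the same replicate number deviated together, which the fits above leave out. With the replicate number as a block, Fdft1 was called in this comparison (adjusted p = 0.0241, with 262 genes called in place of 30), and its adjusted p against NC was 0.105, 0.146 and 0.0688 in the 3 combinations.

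The other 6 enzymes showed no such order. Lss stood at 23.5 and 9.17 FPKM in NC, and at 6.94 to 18.5 FPKM (median 7.74) with Nr5a2 siRNA, so that both sets overlapped. Fdps stood at 33.8 to 56.3 FPKM with Nr5a2 siRNA and at 30.9 to 89.7 FPKM without it. Hmgcs1, Sqle, Idi1 and Cyp51 overlapped between both sets of libraries.

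With all 4 receptors targeted, Fdft1 again had the most negative log2 fold change of the 7 at 8C. It stood at 184 and 101 FPKM in NC and at 85.6 and 31.6 FPKM in 4KD. Both 4KD libraries lay below NC, at a log2 fold change of -1.37 (SE 0.56, limma p = 0.0353, adjusted p = 0.601). Lss stood at 9.09 and 16.9 FPKM in NC and at 7.39 and 8.81 FPKM in 4KD, also apart. By limma 0 of the 7 and 0 percent of all genes were called, and at an unadjusted p under 0.05 it was 1 of 7 (Fdft1) against 7.48 percent. The libraries did not overlap downward for 2 of 7 genes (19.2 percent of all genes) and upward for 1 (18.1 percent), which was Hmgcs1 at 9.42 and 10.3 FPKM in NC and 11.1 and 19.5 FPKM in 4KD.

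At 4C the same siRNAs left Fdft1 at 58.6 and 121 FPKM, below the 154 and 186 FPKM of NC. Fdps stood at 4.49 and 18.6 FPKM against 18.8 and 29.7 FPKM in NC, so that the groups nearly met. Sqle, at 20.9 and 19.3 FPKM in NC and 23.7 and 26.7 FPKM in 4KD, was apart upward. That made 2 of 7 apart downward (15.3 percent of all genes) and 1 upward (14.7 percent). Neither Fdft1 nor Fdps passed the test, and by limma 0 of 7 genes and 0 percent of all genes were called. At an unadjusted p under 0.05 it was 0 of 7 against 5.82 percent. The 4KD effect at 8C differed from that at 4C by -0.37 for Fdft1 (SE 0.79, limma p = 0.649), and 0 of 7 and 0 percent were called, with 0 of 7 against 2.47 percent at an unadjusted p under 0.05. For NC at 8C against NC at 4C these were 0 of 7 and 0 percent, and 0 of 7 against 7.41 percent.

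At 2C, where 20 μM Nr5a2 siRNA was used in place of 5 μM, Fdft1 stood at 81.4 and 77.9 FPKM in the knockdown, between the NC libraries at 115 and 51.7 FPKM. Nr5a2 stood at 2.72 and 6.13 FPKM in the knockdown and at 19.4 and 24.3 FPKM in NC, a log2 fold change of -2.14 (adjusted p = 0.89). Sqle stood at 38.9 and 46.1 FPKM against 31.9 and 26.5 FPKM in NC, and Hmgcs1 at 9.69 and 9.50 FPKM against 8.69 and 7.69 FPKM, both apart upward (2 of 7 against 27.3 percent of all genes). Idi1 stood at 5.47 and 5.82 FPKM, below NC at 20.7 and 5.96 FPKM (1 of 7 apart downward against 8.27 percent). By limma 0 of 7 genes were called, with 0.0167 percent of all genes, and 0 of 7 against 4.67 percent at an unadjusted p under 0.05. The median of all genes was 0.23 here and 0.02 with median-ratio scaling, under which 5 of the 7 genes lay below 0 in place of 3. NC replicate 1, the higher for Fdft1 and Idi1, has a library number apart from the other 3 libraries.

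Across the 3 experiments at 8C, Fdft1 was the member for which every library with Nr5a2 siRNA lay below every library without it in each experiment on its own. That held for 1 of the 7 genes and for 2 percent of the 9366 genes tested in all 3. Lss did so in the 4KD and single KD experiments (2 of 7 genes with Fdft1 in each, against 19.2 and 12.6 percent of all genes) but not in 3KD. None of the 7 lay above in all 3, against 0.779 percent of all genes. By the labels, the NC libraries of these experiments received different amounts of control siRNA, 5 to 20 μM.

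The oocyte gene Zp3, which encodes a coat protein of the egg, was singled out from 5 oocyte genes after their values were seen and was not tested. It stood at 132 and 81.3 FPKM in the Nr5a2 knockdown against 29.3 and 31.2 FPKM in its NC, and at 77.1 to 172 FPKM in the 3KD libraries with Nr5a2 siRNA against 11.8 to 49.8 FPKM in those without. In the 4KD experiment it stood at 68.2 and 34.3 FPKM in 4KD and at 44.8 and 23.5 FPKM in NC, which overlapped. The other 4 oocyte genes summed to 0.443 and 3.26 FPKM in the Nr5a2 knockdown and to 5.12 and 9.11 FPKM in NC. In the 4KD experiment at 8C that sum was 8.72 and 4.74 FPKM in 4KD and 19.5 and 18.4 FPKM in NC. In the 3KD experiment it overlapped, at 3.17 to 14.4 FPKM with Nr5a2 siRNA and 4.79 to 14.1 FPKM without. The 10 cumulus genes were all listed at 0 in the NC and Nr5a2 knockdown libraries of the single KD experiment. Nr5a2 knockdown replicate 2 also had the lowest FPKM sum of the single KD experiment, 401251, and the fewest genes at an FPKM of 1, 8107. The part of these differences in the result for Fdft1 was not tested.

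**Figure D2:**
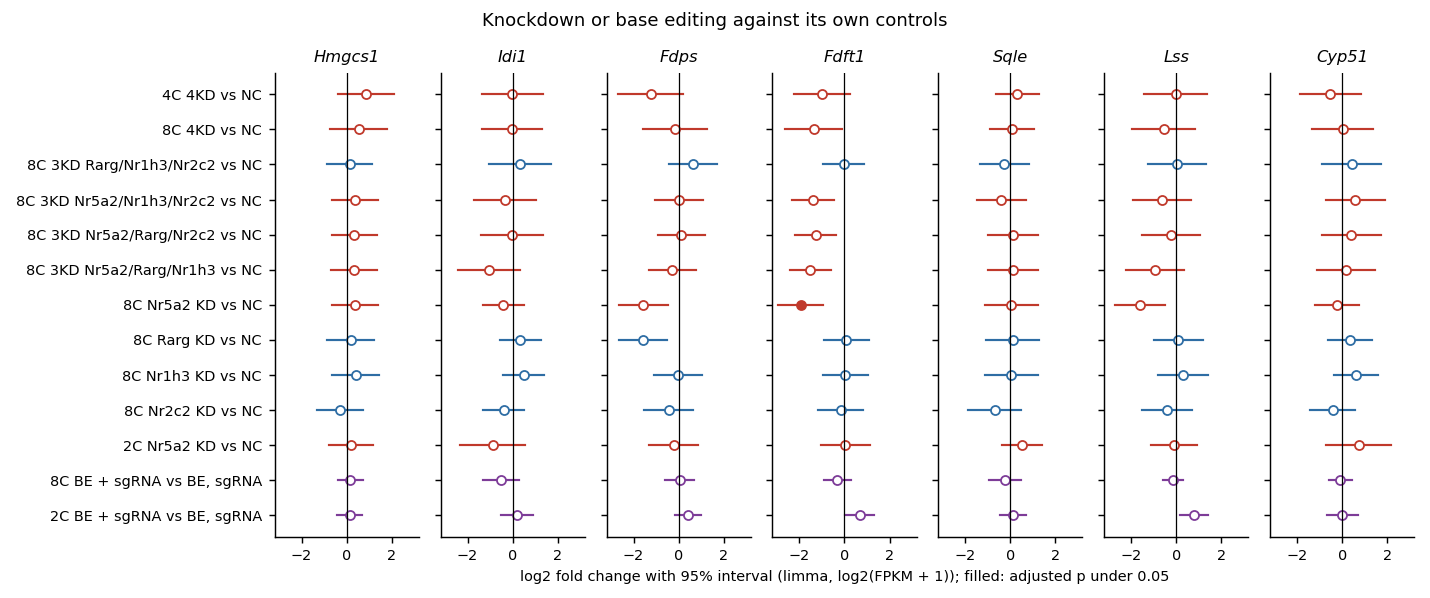
Log2 fold change with its 95% interval (x axis, limma on log2(FPKM + 1)) of the 7 enzymes in pathway order against the controls of each experiment (rows; filled points at an adjusted p under 0.05; red with Nr5a2 siRNA, blue with other receptors only, purple for base editing). The single filled point is Fdft1 in the 8C Nr5a2 knockdown at -1.94, and Fdft1 lies between -1.94 and -1.0 in every siRNA comparison at 4C and 8C that held Nr5a2 siRNA.

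**Figure D3:**
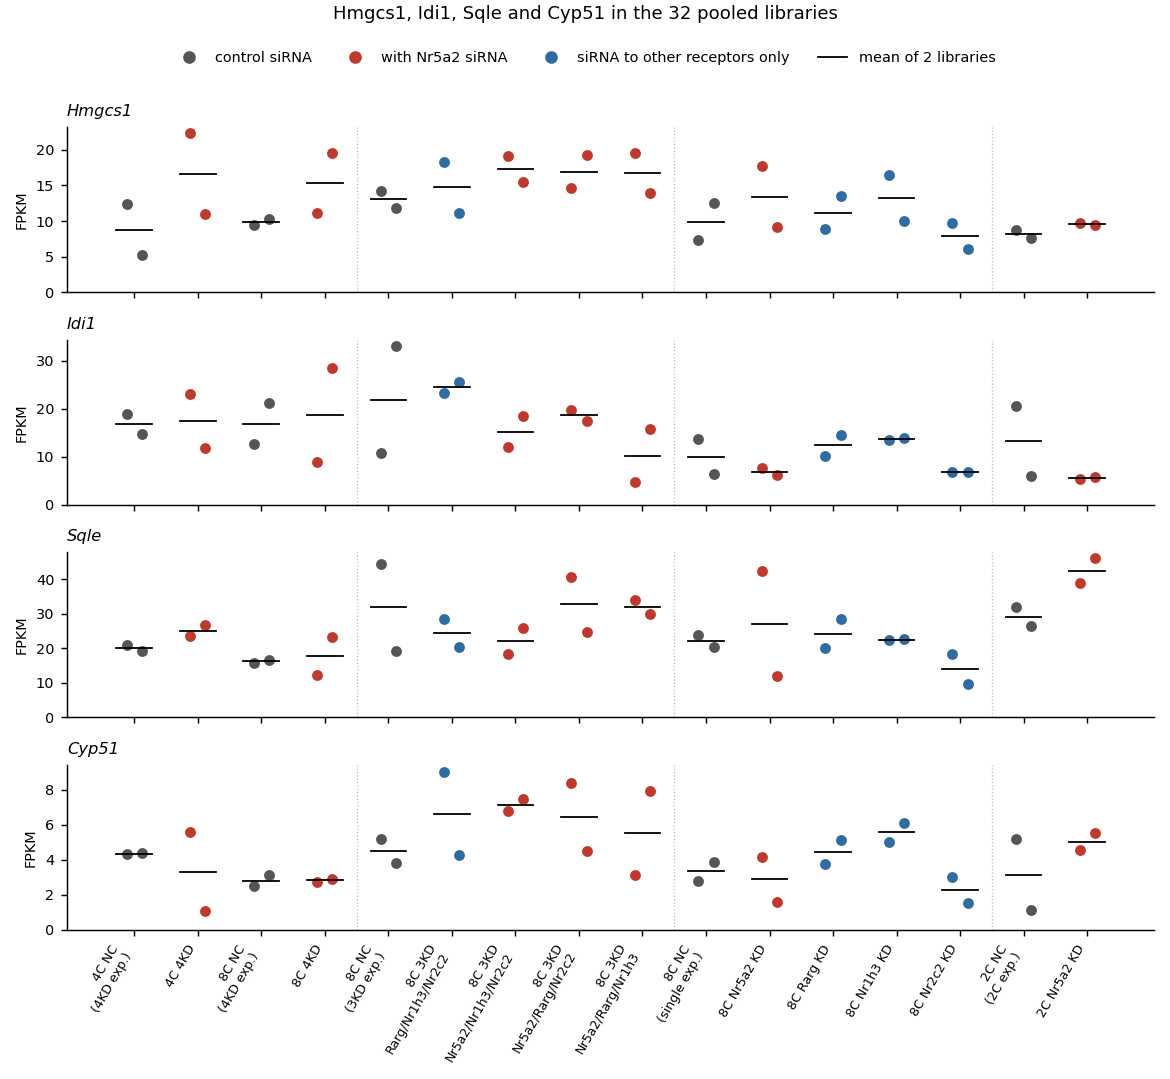
FPKM (linear axis from 0) of Hmgcs1, Idi1, Sqle and Cyp51 in each of the 32 pooled libraries, 2 points per group with a line at their mean, colored by siRNA as in the plot of Fdft1, Fdps and Lss. Libraries with Nr5a2 siRNA lie among those without it at 8C, from 9.14 to 19.6 FPKM against 6.04 to 18.3 FPKM for Hmgcs1 and from 11.9 to 42.5 FPKM against 9.59 to 44.4 FPKM for Sqle.

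From 2C to 8C the single control embryos (BE and sgRNA together, 16 per stage) showed a rise in Fdps, Lss and Fdft1 and no call for the other 4 genes. That made 3 of 7 genes called, against 72.5 percent of the 12991 genes tested. The median of all genes moved by -0.31, and by -0.49 with median-ratio scaling and -0.69 with the same FPKM sum for every library.

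Fdps had a median of 8.08 FPKM (lowest 2.60, highest 13.9) in 2C BE embryos and of 5.38 FPKM (1.40 to 12.4) in 2C sgRNA embryos. At 8C it had a median of 30.9 FPKM (13.1 to 57.2) and of 29.3 FPKM (11.4 to 55.04). The stages overlapped between 11.4 and 13.9 FPKM, and the log2 fold change was 1.94 (SE 0.29, limma adjusted p = 2.94e-08). It was 2.32 within the eBE run of library names and 1.45 within the BE4 run, with only BE embryos compared at both stages. These runs are sets of library names, and the labels do not say what sets them apart. Of the 2C sgRNA embryos 7 were in the eBE run and 1 had a 4-cell name. Of the 2C BE + sgRNA embryos 8 were in the BE4 and 6 in the eBE run. At 8C 4 sgRNA embryos were in each run.

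Lss had a median of 5.24 FPKM (1.19 to 11.9) in 2C BE and of 6.62 FPKM (1.02 to 13.7) in 2C sgRNA embryos. At 8C it had a median of 16.7 FPKM (11.3 to 23.2) and of 15.2 FPKM (8.61 to 21.5). The stages overlapped between 8.61 and 13.7 FPKM, with a log2 fold change of 1.33 (SE 0.26, adjusted p = 7.06e-06).

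Fdft1 had a median of 53.1 FPKM (23.8 to 145) in 2C BE and of 36.4 FPKM (11.6 to 68.2) in 2C sgRNA embryos. At 8C it had a median of 107 FPKM (57.1 to 123) and of 61.1 FPKM (27.4 to 156). The stages overlapped widely, with a log2 fold change of 0.85 (SE 0.30, adjusted p = 0.00856), and its call was lost with BE embryos as the only controls (0.74, adjusted p = 0.119) and with the same FPKM sum for every library (0.24, adjusted p = 0.315). The 2C BE embryo with the cumulus genes, replicate 5, had Star at 18.7, Cyp11a1 at 27.2 and Hsd3b1 at 74.2 FPKM. Without it the count of calls was again 3 and Fdft1 differed by 0.77 (adjusted p = 0.0184).

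Hmgcs1, Idi1 and Sqle differed by 0.16, 0.19 and -0.46 between the stages and Cyp51 by -0.58 (adjusted p = 0.0721). With median-ratio scaling 5 of 7 genes were called, with Sqle and Cyp51 lower, beside 9854 of the 12991 genes tested. Hmgcs1 and Idi1 turned to -0.10 and -0.09 under it and to -0.43 and -0.35 with the same FPKM sum. Sqle had a median of 36.9 and 29.4 FPKM in the BE and sgRNA embryos at 2C and of 29.6 and 14.01 FPKM at 8C. Cyp51 had a median of 5.40 and 4.68 FPKM at 2C and of 2.58 and 1.53 FPKM at 8C.

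Base editing at 8C gave no call among the 7 genes. By limma 0 of 7 were called against 0.164 percent of the 9760 genes tested, and 0 at an unadjusted p under 0.05 against 10.8 percent. Fdft1 had a median of 63.1 FPKM (14.1 to 167) in BE + sgRNA embryos, which overlapped both control groups. The log2 fold change against the mean of BE and sgRNA embryos was -0.31 (SE 0.30, 95% interval -0.92 to 0.29). In the pools with Nr5a2 siRNA alone it had been -1.94, and the difference between these effects was not tested.

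The 2 control arms were also set against each other. Fdft1 differed by -0.58 between sgRNA and BE embryos at 8C (limma adjusted p = 0.604). BE + sgRNA embryos differed by -0.60 from BE embryos alone and by -0.03 from sgRNA embryos alone. The medians of all genes were -0.31, -0.14 and 0.18 in the same order. Within the eBE run the value of Fdft1 was -0.37 and within the BE4 run -0.62. In the BE4 run with BE embryos as the only control it was -1.49 (limma p = 0.0128, adjusted p = 0.564), beside a median of -0.44 over all genes. The BE4 run held BE + sgRNA replicate 8, with an FPKM sum of 83392. Its sgRNA embryos at 8C had sums of 207918 to 268257, against 428014 to 466564 in the eBE run. Nr5a2 RNA itself differed by 0.21 at 8C and by 0.41 at 2C, and since a base change need not alter the level of an RNA, the level does not check the edit.

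Of the other members at 8C, Fdps had a median of 35.7 FPKM (6.21 to 71.7), Lss of 15.4 FPKM (3.90 to 27.9), Idi1 of 4.95 FPKM (0 to 10.3) and Sqle of 17.7 FPKM (1.64 to 52.1) in BE + sgRNA embryos. The groups overlapped for all 7 genes, and the differences ran from -0.52 for Idi1 to 0.16 for Hmgcs1. At 2C all 7 genes lay above 0 in BE + sgRNA embryos, against 56.4 percent of all genes, and 4 of 7 did with median-ratio scaling. By limma 0 of 7 were called against 0.00805 percent, and 2 at an unadjusted p under 0.05 against 11.6 percent. These were Fdft1, with a median of 77.3 FPKM (17.3 to 117) and a difference of 0.67 (p = 0.0385, adjusted p = 0.404), and Lss, with a median of 10.7 FPKM (1.88 to 31.7) and a difference of 0.76 (p = 0.0174, adjusted p = 0.339). Against BE embryos alone Fdft1 differed at 2C by 0.26 (limma p = 0.488), and against sgRNA embryos alone by 1.08 (p = 0.00729, adjusted p = 0.199). For Lss these values were 0.92 and 0.61. Between sgRNA and BE embryos at 2C Fdft1 differed by -0.81 (limma adjusted p = 0.624), beside a median of -0.27 over all genes. The editing effect at 8C differed from that at 2C by -0.98 for Fdft1 (p = 0.0266, adjusted p = 0.449) and by -0.90 for Lss (p = 0.0195, adjusted p = 0.409). Here limma called 0 of 7 against 0.0385 percent, and at an unadjusted p under 0.05 it was 2 of 7 against 9.68 percent.

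**Figure D4:**
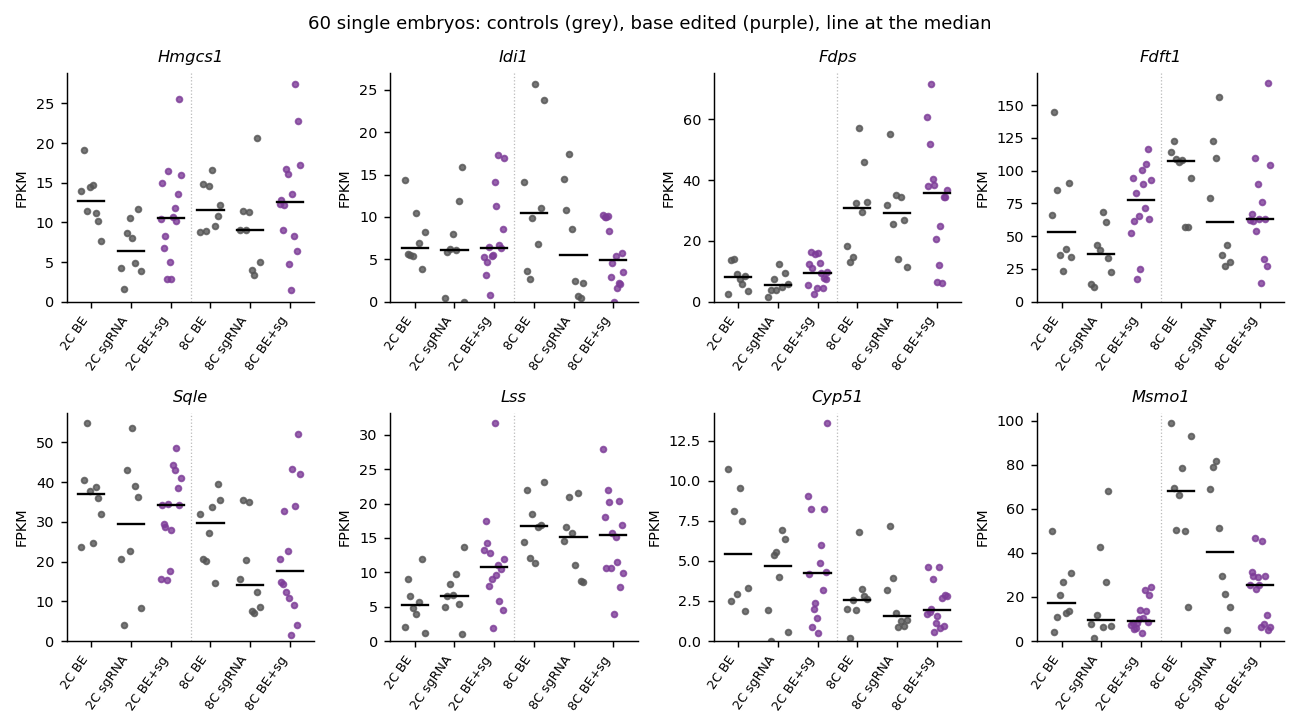
FPKM (linear axis from 0) of the 7 enzymes and of Msmo1 in each of 60 single embryos, 1 point per embryo with a line at the group median, grey for BE or sgRNA alone and purple for both. The median of Fdps lies at 5.38 to 9.57 FPKM in the 2C groups and at 29.3 to 35.7 FPKM in the 8C groups, and the purple points of Fdft1 at 8C lie among the grey ones.

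The wider pathway was read from lists of 14 further synthesis genes, 7 regulators, 12 genes of uptake and lysosomal release and 8 of efflux and storage. In the 8C Nr5a2 knockdown 12 of the 14 further synthesis genes could be tested, and 1 was called, lower, against 2.75 percent of all genes in either direction, with a median log2 fold change of -0.36 over the 12 against -0.22 over all genes. The called gene was Msmo1, the sterol C4 methyl oxidase that acts after CYP51, at 68.8 and 81.3 FPKM in NC and at 10.4 and 9.12 FPKM in the knockdown. Its log2 fold change was -2.82 (SE 0.39, adjusted p = 0.00448). Against the other single knockdowns, where Msmo1 stood at 43.4 to 80.4 FPKM, the difference was -2.38 (SE 0.32, adjusted p = 0.00229).

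Ebp, the isomerase that follows the C4 demethylations, stood at 57.9 and 31.8 FPKM in NC and at 22.6 and 6.43 FPKM in the Nr5a2 knockdown, a difference of -1.73 (adjusted p = 0.109). Against the other single knockdowns, at 50.5 to 90.4 FPKM, it was called (-2.44, SE 0.43, adjusted p = 0.00971). Ebp was also the 1 gene of 12 in this list for which the libraries with Nr5a2 siRNA lay below the others in all 3 experiments at 8C, against 2 percent of all genes. Over the 24 pooled libraries of that stage it ranged from 4.17 to 50.0 FPKM with Nr5a2 siRNA and from 31.8 to 105 FPKM without. Mvd, which makes isopentenyl diphosphate, stood at 12.4 and 5.80 FPKM in NC and at 2.93 and 2.22 FPKM in the knockdown (-1.43, limma p = 0.012, adjusted p = 0.143). Ebp overlapped between 4KD and NC at 4C. At 2C it stood at 24.9 and 25.1 FPKM with Nr5a2 siRNA, above the 11.4 and 19.1 FPKM of NC. There 6 of 13 further synthesis genes lay apart upward, against 27.3 percent of all genes, and 0 downward, against 8.27 percent.

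Msmo1 was low beyond the single knockdown without passing the test there. In the 4KD experiment at 8C it stood at 87.5 and 89.4 FPKM in NC and at 26.8 and 21.6 FPKM in 4KD (-1.84, limma p = 0.00088, adjusted p = 0.256). There it was the 1 of 13 further synthesis genes at an unadjusted p under 0.05, against 7.48 percent of all genes. In the 3KD experiment the 6 libraries with Nr5a2 siRNA held 11.3 to 41.5 FPKM and the 4 without 37.6 to 115 FPKM, an overlap owed to NC replicate 1. In BE + sgRNA embryos at 8C it had a median of 25.3 FPKM (5.24 to 46.5), against 67.9 FPKM (15.3 to 98.8) in BE and 40.4 FPKM (4.81 to 81.7) in sgRNA embryos, a difference of -1.18 (SE 0.37, p = 0.0033, adjusted p = 0.247). Here too Msmo1 was the 1 of 13 further synthesis genes at an unadjusted p under 0.05, against 10.8 percent of all genes. Its difference was -1.59 against BE embryos alone and -0.77 against sgRNA embryos alone (limma p = 0.0978). Within either run of library names it was -0.93.

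Insig1, an anchor of the SREBP complex and itself a target of it, stood at 15.6 and 14.6 FPKM in the Nr5a2 knockdown against 23.4 and 20.7 FPKM in NC (-0.52, adjusted p = 0.538). Srebf2, the gene of SREBP2, was under a mean of 1 FPKM in every group at 8C and was not tested there. In the Nr5a2 knockdown limma called 0 of 6 regulators tested, 0 of 6 uptake genes and 0 of 5 efflux and storage genes. At an unadjusted p under 0.05 the counts were 1, 1 and 0, against 18.1 percent of all genes. Both knockdown libraries lay below both NC libraries for 6 of 6, 3 of 6 and 2 of 5, against 33.1 percent. The median log2 fold changes of these lists were -0.56, -0.80 and -0.42, beside -0.22 over all genes. No gene of the uptake list was called in any siRNA or base editing comparison, where at most 3.95 percent of all genes were.

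Between 2C and 8C the lists moved in both directions. Of 13 further synthesis genes tested, 3 were called higher and 4 lower, among them Lbr (1.85, a sterol reductase of the nuclear envelope), Mvk (-2.84, the mevalonate kinase) and Sc5d (-1.78). Of 7 regulators 0 were called higher and 3 lower, which were Scap (-2.36), Insig1 (-2.15) and Srebf2 (-0.65). Insig1 had a median of 97.5 and 72.0 FPKM in the BE and sgRNA embryos at 2C and of 28.7 and 12.4 FPKM at 8C. Both 8C groups overlapped the 2C sgRNA embryos, which reached down to 12.6 FPKM. Of 8 uptake genes 2 were called higher, with Npc2 (a lysosomal cholesterol carrier, 2.2), and 3 lower, with Mylip (-2.34), a ubiquitin ligase. Of 6 efflux and storage genes 2 were called higher, with Nr1h2 (1.49, an LXR), and 3 lower, with Nceh1 (-3.36), which splits cholesterol esters. These counts stand beside the 28.9 percent of all genes called higher and 43.6 percent called lower.

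**Figure D5:**
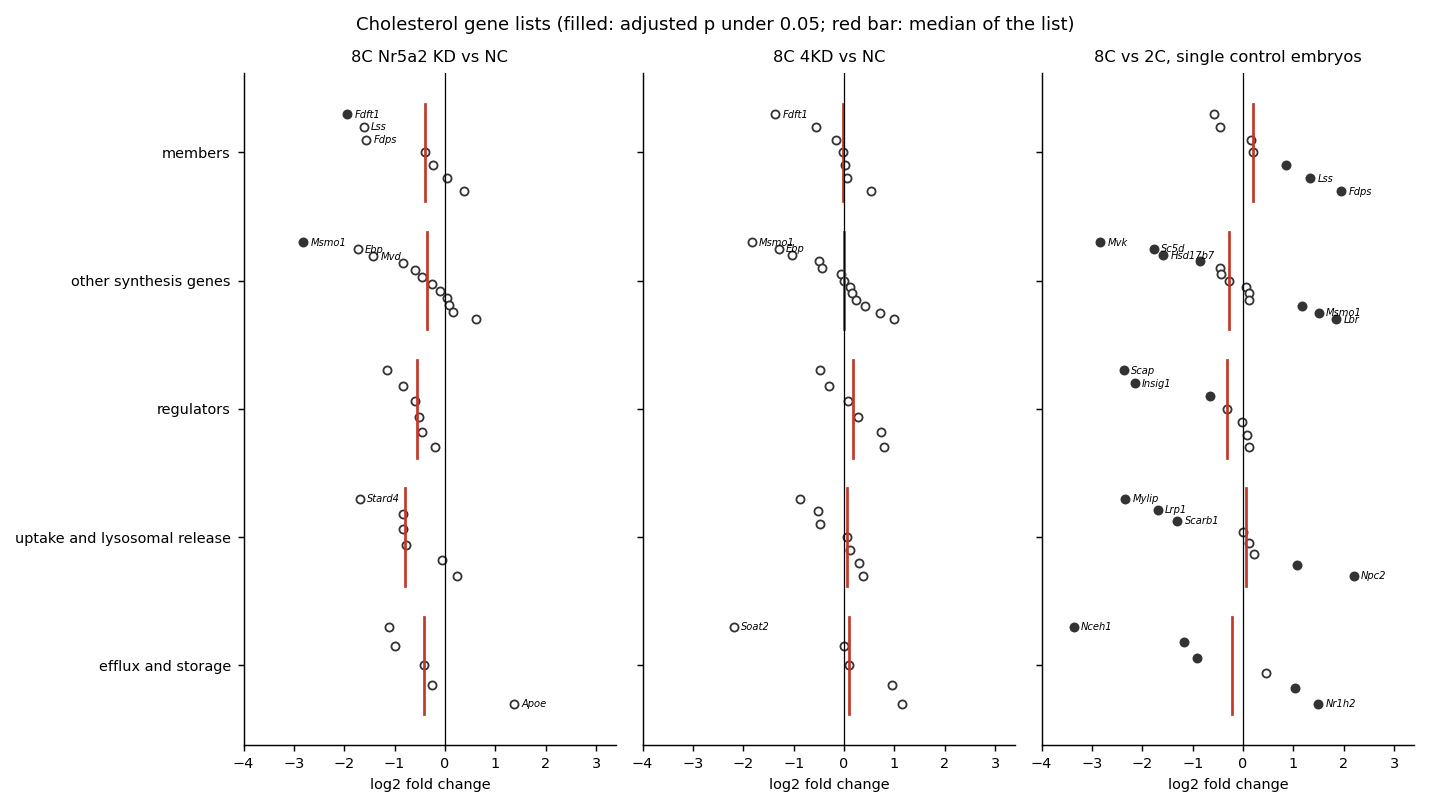
Log2 fold change (x axis, limma on log2(FPKM + 1)) of every tested gene of 5 cholesterol lists (rows, 1 point per gene, filled at an adjusted p under 0.05, red bar at the list median) in 3 comparisons. In the 8C Nr5a2 knockdown the filled points are Fdft1 (-1.94) and Msmo1 (-2.82), in 8C 4KD no point is filled, and between the stages filled points lie on both sides of 0.

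The genes whose group means ran most like the mean of the 7 enzymes over 22 groups were Sept2, Tax1bp3, Tada1, Cab39l and Ngdn, with a Pearson r of 0.93, 0.92, 0.90, 0.90 and 0.88. Over the 15 groups at 8C they were Ergic2, Hbp1, Tada1, Sept2 and Tax1bp3, with r of 0.93 to 0.91. The members themselves ranged from 0.12 for Sqle to 0.82 for Idi1 over the 22 groups. These values describe groups that share stage, run and control libraries and were given no test.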

How the data were processed

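RNA-seq FPKM of 92 libraries were used, and the chromatin samples of the series (ATAC-seq, CUT&RUN and the like) were left out. Per the study's methods, the authors trimmed reads, aligned them to mm9 by TopHat and ran Cufflinks against UCSC refFlat, which gave the deposited FPKM. No scaling between libraries is stated there. The members and lists were chosen with earlier results of these data known.

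limma 3.58.1 (R 4.3.3) was fitted to log2(FPKM + 1) in 19 comparisons, with all libraries of an experiment in 1 fit. Genes needed a mean of 1 FPKM in some group, the prior variance followed a trend in the mean, and p-values were adjusted by Benjamini-Hochberg over all genes. Code was tested on simulated data. Python 3.11.15, pandas 2.3.3, NumPy 2.4.6 and matplotlib 3.10.9 were used. Statistics were given in full for members that were called, or whose unadjusted p was under 0.05 at a change of 1 or more on the log2 scale. Of each other list at most 4 genes called with the largest change were named, and Srebf2 and Insig1 always. Some genes that this rule would name are not reported here. Mvd, Zp3, and Msmo1 and Ebp where not called, were named after their values were seen.

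Same-numbered 3KD libraries deviated together across genes in all 10 pairs of groups (r = 0.278 to 0.513). The replicate number was therefore taken as pairing them, which rests on these correlations. It was not a term of the main fits, whose 3KD statistics leave this pairing out, and entered as a block only in the alternatives. Alternatives were a pseudocount of 0.1, no filter, a filter at 5 FPKM, median-ratio scaling, no trend, the replicate block, only the groups compared, each library left out, other control arms and runs of library names. Chosen after seeing the data were scaling to the same FPKM sum, leaving out 2C BE replicate 5, sgRNA against BE embryos, and the stage comparison by control arm and run.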

Additional observations from a re-analysis of the deposited data

Results flagged for a closer look

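Among the 28 combinations of a member and a single-embryo group of 8, 2 held an embryo far from the others, about as many as chance gives (about 1 in 20). Hmgcs1 stood at 20.7 FPKM in 8C sgRNA replicate 7, with the next embryo at 11.5 FPKM. Cyp51 stood at 6.79 FPKM in 8C BE replicate 5, with the next at 3.27 FPKM. The effect of knockdown on Fdft1 differed between receptors by a test of the difference itself. It was -1.92 on the log2 scale in the Nr5a2 knockdown against the other single knockdowns (limma adjusted p = 0.017). Both Nr5a2 knockdown libraries lay below every library of the other knockdowns. With no filter on low values the difference was not called (adjusted p = 0.0647). Without Nr5a2 knockdown replicate 2 the value was -1.13 and the call was lost. It was also lost without any 1 library of the other knockdowns.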

How the results depend on the processing

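Counts of called members were recomputed under each alternative and no called value of a member changed sign. In the 8C Nr5a2 knockdown against NC, 1 member was called, and 0 were with no filter on low values, with eBayes without a trend, with the replicate block (Fdft1 adjusted p = 0.0531) and with only the groups compared. Leaving out 1 library gave 0 to 2. Against the other single knockdowns, 1 was called, 0 with no filter, 2 (with Lss) with a mean FPKM of at least 5, with median-ratio scaling and with the same FPKM sum, and 0 to 2 without 1 library. For Rarg, Nr1h3 and Nr2c2 siRNA against the other 3KD groups, 0 were called and 1 with the replicate block. Between the stages, 3 were called and 5 with median-ratio scaling or without the embryo of lowest FPKM sum at each stage. Those embryos were 2C sgRNA replicate 2 and 8C BE + sgRNA replicate 8, the latter not among the controls compared. The replicate block changed no other count of members, and it moved the count over all genes from 6 to 45, 1 to 35, 0 to 65 and 30 to 262 in the 3KD comparisons with Nr5a2 siRNA and between 3KD groups, from 8 to 1 in the Nr2c2 knockdown and from 16 to 0 in 8C base editing. Same-numbered libraries correlated at 0.346 (4C) and 0.336 (8C) within a stage and at -0.297 to -0.271 between stages in the 4KD experiment, whose block spans both stages, at -0.04 to 0.141 in the single KD and at 0.004 in the 2C experiment. With 1 pair of groups per stage, the numbers were not taken as pairing libraries there. For single embryos this correlation was not computed, and equal numbers can belong to different runs. 8C BE replicate 1 was in the BE4 run and 8C sgRNA replicate 1 in the eBE run. The block is therefore not a pairing of single embryos, and its count in 8C base editing cannot be read as one. The cause of these shifts was not tested. In the 8C Nr5a2 knockdown 12.9 percent of the called genes were higher, and 30.3 percent with median-ratio scaling, which moved the median of all genes from -0.22 to 0.01. Against the other single knockdowns the share of higher genes was 20 percent and 37.7 percent with that scaling, between the stages 39.8 percent, and 23.6 percent with the same FPKM sum, between 3KD groups 90 and 77.4 percent, and in 8C base editing 81.2 percent, and 64 percent with median-ratio scaling. Without counts, the depth behind low values such as Cyp51 is unknown.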
